A study of Mus musculus with 6 samples.

Results

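The lysosomal set described here held 39 genes, listed by their known function. It comprised 6 cathepsins, 2 further enzymes that act on proteins (a peptidase and a thioesterase), 8 glycosidases, 5 sulfatases, 4 lipid hydrolases and phosphatases, 4 activators and lumenal proteins, 8 membrane proteins and the 2 transcription factors Tfeb and Tfe3. All 39 were found by symbol among the 15398 genes used. Their transcripts were compared between mouse bEND.3 cells carrying stable expression of circSlc17a5, a circular RNA that takes its name from the lysosomal transporter gene Slc17a5, and bEND.3 cells carrying an empty vector, called control below. Each group had 3 RNA sequencing libraries, and no further treatment, time or genotype is given. bEND.3 is known as a mouse brain endothelial line made with a viral oncogene, and both groups carry that label. Most endothelial markers examined were low in these libraries and some keratin genes were high, as given at the end of these results. The labels do not name the promoter of the vector, a clone or separate cultures, so the p-values measure the spread between these libraries, which may be technical.

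Lysosomes are acidic organelles in which soluble hydrolases break down proteins, glycans, lipids and sulfated polymers, and mutations in many of these enzymes cause storage diseases. The hydrolases reach the lysosome through mannose 6-phosphate receptors or through carriers such as the Scarb2 protein, while heavily glycosylated membrane proteins line the organelle. TFEB and TFE3 bind a short element around the letters CACGTG near the start sites of many lysosomal genes, and the kinase complex mTORC1 on the lysosome keeps both factors in the cytoplasm when nutrients are plentiful.

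The element that TFEB and TFE3 recognise was looked for in the RefSeq promoters of the GRCm38.p6 build, from 250 bases before to 50 bases after each start site. A promoter was found for 35 of the 39 genes, all but Asah1, Ctsb, Ctsh and Galns. The letters CACGTG, which read alike on both strands, stood in the promoters of 10 of these 35 genes (28.6%), against 7.15% of all 32851 promoters of this length and 11.7% of the 9416 tested genes with a promoter. The 10 genes were Arsa, Cln3, Ctsd, Ctsl, Gaa, Gla, Lamp1, Mcoln1, Naglu and Sgsh. The longer forms TCACGTG and GTCACGTG, which contain the core, were found in 9 (25.7%) and 8 (22.9%) of the 35, against 3.77% and 2.25% of all promoters and 6.96% and 4.83% of the tested genes. These are matches of letters in a window and say nothing of binding. Lamp1 is shown because it had the most cores in its promoter of the 10 genes, Naglu and Cln3 because both were lower with circSlc17a5, and Gaa as an enzyme with a single core upstream of its gene. Capitals mark the core. The windows lay at chr8:13159080-13159160 (plus strand, upstream of Lamp1), chr11:101070009-101070038 (plus strand, in an exon and untranslated region of Naglu by GENCODE), chr7:126583340-126583369 (minus strand, in an exon and untranslated region of Cln3) and chr11:119267803-119267848 (plus strand, upstream of Gaa).
Lamp1: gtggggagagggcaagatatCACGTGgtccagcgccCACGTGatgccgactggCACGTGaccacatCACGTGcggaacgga
Naglu: caaccttcaggtCACGTGgcccgaggtcgg
Cln3: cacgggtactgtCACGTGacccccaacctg
Gaa: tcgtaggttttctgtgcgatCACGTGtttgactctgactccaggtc
The Lamp1 window holds 4 cores, whose first bases lie between 61 and 15 bases before the start site (-61 to -15). Naglu and Gaa had 1 core each, at -73 and -140, and Cln3 had 2, of which 1 is shown. In the comparison of the groups described below, 2 of the 10 genes with the core and 7 of the 25 without it were called, beside 2584 of all 11722 tested genes. The median log2 fold changes were -0.09 with the core and -0.06 without it.

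The cells expressed nearly the whole set. On the deposited FPKM scale, which corrects for gene length, Cd63, a tetraspanin of late endosomes and lysosomes, had the highest mean over the 6 libraries (971 FPKM). It was followed by the cysteine protease Ctsb (872), the progranulin gene Grn (741), the protease Ctsl (725) and the aspartic protease Ctsd (473). Ctsz (346), Cd68 (340) and Psap (311) came next, and these 8 all lay at or above the percentile 97.9 of the gene table. At the other end stood Ctsh (0.153), the sulfatase Ids (2.81), the heparan N-sulfatase Sgsh (3.2), Idua (4.09) and Scarb2 (4.33). In the plot of levels, genes differed far more from each other than libraries did within a gene, apart from Ctsh.

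**Figure D1:**
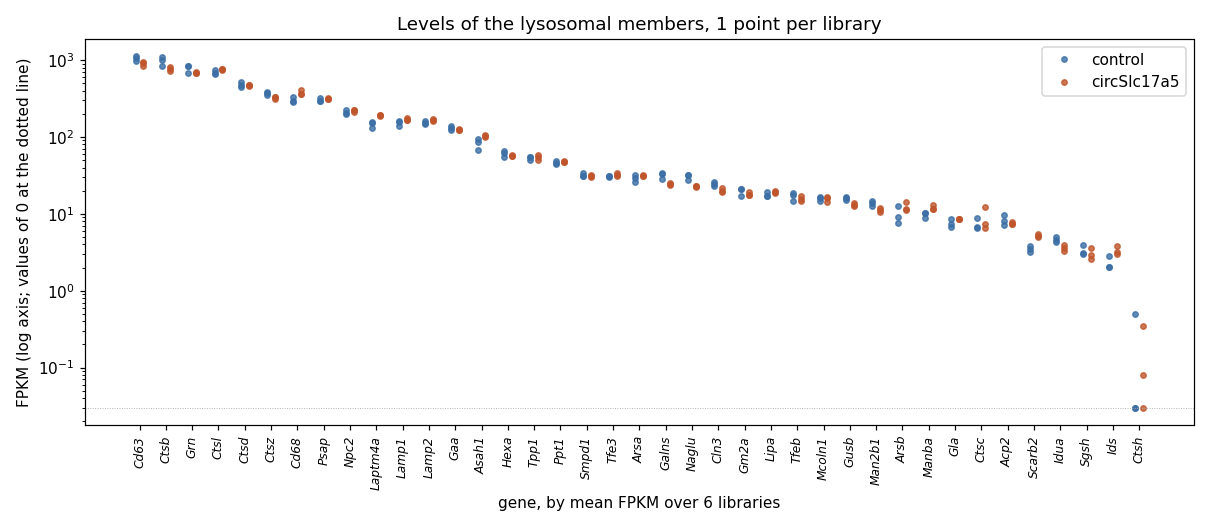
FPKM of the 39 lysosomal genes (log axis, 1 point per library, blue control and red circSlc17a5), ordered by mean FPKM from Cd63 at 971 to Ctsh at 0.153. Ctsh is the only gene listed at 0 in some libraries, drawn at the dotted line, and for the other 38 the difference between genes is far larger than that between libraries.

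Summed over the 39 genes, the set took 0.551%, 0.578% and 0.619% of the deposited TPM in control libraries 1, 2 and 3 and 0.625%, 0.58% and 0.597% in circSlc17a5 libraries 1, 2 and 3. The means were 0.582% ± 0.0342 and 0.601% ± 0.0228 (SD, n = 3 libraries each), so the groups overlapped. The cathepsins made up the largest share, 0.232% in each group, ahead of the membrane proteins with 0.17% and 0.182%. An equal share of TPM does not mean equal values from counts. In the comparison from counts below, 4 of the 5 tested cathepsins had a negative log2 fold change and 1 a positive one. The libraries held 16848513 to 17600230 counts each.

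The comparison between circSlc17a5 and control asked whether transcripts of lysosomal genes differ when the circular RNA is expressed. Of 38 genes tested, 3 were higher with circSlc17a5 and 7 were lower, and 28 did not pass. The higher genes were the membrane proteins Scarb2 (1.40-fold) and Laptm4a (1.24-fold) and the sulfatase Ids (1.36-fold). The lower genes were the glycosidases Naglu, Man2b1 and Idua, the sulfatase Galns, the cathepsin Ctsz and the membrane proteins Cd63 and Cln3, which were 1.2-fold to 1.39-fold lower. Naglu and Scarb2 were the only calls that held with each of the 6 libraries left out in turn. Both Tfeb and Tfe3 failed to pass the test. In bulk RNA, fewer cells of a type and less RNA per cell cannot be told apart.

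A gene was called at a Benjamini-Hochberg adjusted p under 0.05 in edgeR's quasi-likelihood test over 11722 tested genes. The lysosomal set had 7.89% of its tested genes higher and 18.4% lower, beside 11.8% and 10.2% of all tested genes. Counts by role below stand beside the same shares, and each role holds few genes. The median log2 fold change of the set was -0.09 against -0.002 for all tested genes. Its median absolute log2 fold change was 0.20 against 0.19. Of the 38 genes, 17 had an unadjusted p under 0.05 by edgeR, beside 4583 of all 11722 tested genes. The fold change was positive for 16 and negative for 22, beside 5810 and 5912 of all tested genes. The libraries of the groups did not overlap for 19 of the 38, 7 higher and 12 lower with circSlc17a5, beside 42.6% of all tested genes. Of the 39 genes, 10 had a q under 0.05 in the authors' deposited table, 2 higher and 8 lower, beside 7.9% higher and 7.11% lower of the 15383 genes it gives a q for.

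**Figure D2:**
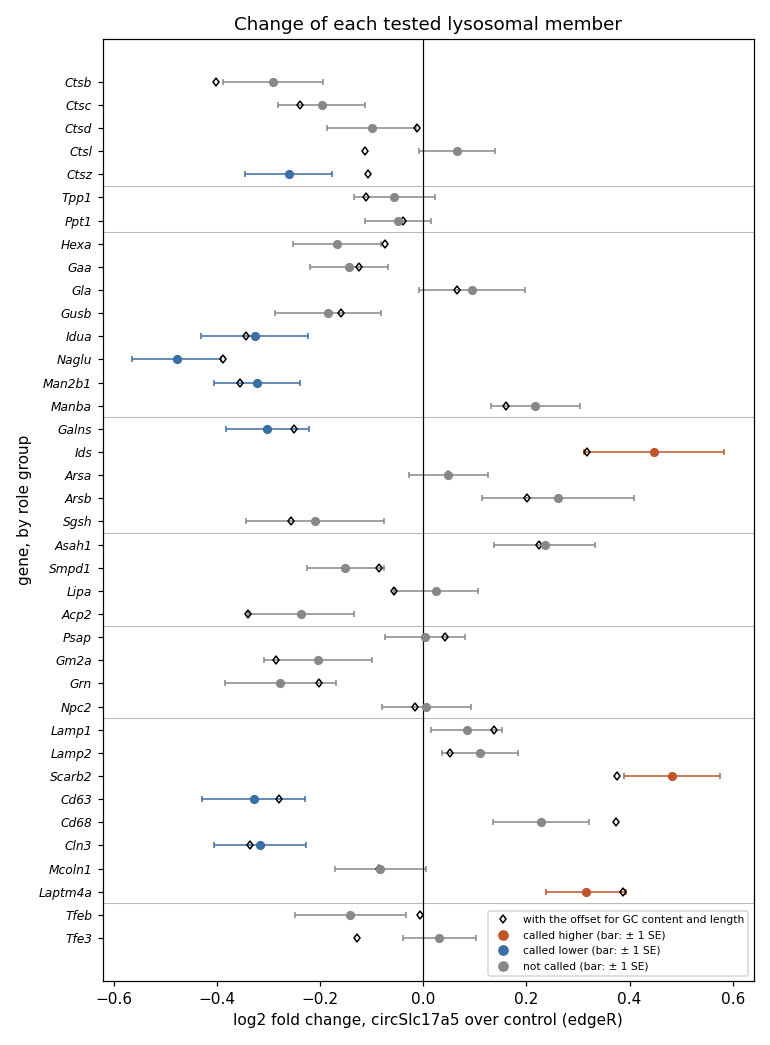
Log2 fold change of circSlc17a5 over control for the 38 tested genes by role (filled points, bars ± 1 SE, orange called higher, blue called lower, grey not called), with open diamonds for the fit offset for GC content and length. No gene lies beyond 0.483 above or -0.478 below zero, and genes of every role except the peptidase and thioesterase group stand on both sides of zero.

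Among the cathepsins, the main lysosomal proteases, 1 of 5 tested genes fell and 0 rose. Ctsz, a carboxypeptidase (Entrez 64138, chromosome 2, 174427494 to 174439039), had normalised CPM values (counts scaled to library size) of 404, 475 and 449 in control and 344, 381 and 384 with circSlc17a5. Every control library was above every circSlc17a5 library. Its log2 fold change was -0.26 (SE 0.084, edgeR adjusted p = 0.0477). A further fit had an offset for the GC content and length of each gene's longest GENCODE transcript. In that fit the log2 fold change of Ctsz was -0.11 (edgeR adjusted p = 0.173). On log2(FPKM + 1) it was -0.18 (limma adjusted p = 0.083).

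Ctsb (Entrez 13030, chromosome 14, 63122462 to 63145923) had the highest FPKM of the cathepsins. Its levels were 1278, 1561 and 1514 CPM in control and 1115, 1200 and 1240 CPM with circSlc17a5, without overlap. The log2 fold change of -0.29 (SE 0.097) missed the threshold (edgeR adjusted p = 0.0526). The gene passed in the authors' deposited table (q = 0.0151), on log2(FPKM + 1) (limma adjusted p = 0.0482) and with the offset (edgeR adjusted p = 0.0214). Its listed span overlaps that of Fdft1 on the other strand.

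The other cathepsins differed less. Ctsl, a cysteine protease with broad substrates, was a little higher in each circSlc17a5 library (log2 fold change 0.07, SE 0.074) and was not called. With the offset the value was -0.11, at a length of 6168 bases that may not be that of the transcript counted. Ctsd overlapped between the groups (-0.10, SE 0.086). Ctsc, which activates serine proteases, had a log2 fold change of -0.20 from counts and of 0.18 from FPKM, and neither value was called. A transcript of Ctsc listed as XM_006507320.4 had 9, 0 and 0 counts in control and 31, 10 and 1 with circSlc17a5.

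Ctsh, an aminopeptidase, was too low to pass the count filter of the main test. It had 10, 0 and 0 counts in control libraries 1, 2 and 3 and 0, 7 and 1 in circSlc17a5 libraries 1, 2 and 3. Some smooth muscle and fibroblast genes were high in the same libraries. Tagln had 139, 2 and 0 counts in control and 7, 147 and 20 with circSlc17a5, and Col1a2 had 508, 3 and 0 and then 7, 257 and 77. Control library 1 and circSlc17a5 library 2 were therefore also the highest of their groups for those genes. All 12 mural, smooth muscle and fibroblast markers were in the table, with summed levels of 31.9, 5.43 and 4.76 FPKM in control and 5.61, 23.4 and 9.06 FPKM with circSlc17a5. Other genes of that list did not follow these libraries, and 3 of its 7 tested genes were called higher with circSlc17a5. Pdgfrb had 30, 29 and 24 counts in control and 63, 71 and 62 with circSlc17a5, Pdgfra had 79, 85 and 88 and then 176, 120 and 141, and Notch3 had 22, 18 and 21 and then 53, 48 and 54. The part of such RNA in the Ctsh counts was not tested.

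Neither the peptidase Tpp1 nor the thioesterase Ppt1, both enzymes of childhood neurodegenerative storage disease in people, passed the test. Tpp1 had 180, 171 and 189 CPM in control and 172, 161 and 186 CPM with circSlc17a5, so the groups overlapped. The log2 fold change was -0.06 (SE 0.078), and that of Ppt1 was -0.05 (SE 0.064). Neither had an unadjusted p under 0.05 by edgeR (0 of 2) or a call by DESeq2 (0 of 2).

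Of the 8 glycosidases, 3 fell and 0 rose. Naglu, which removes N-acetylglucosamine from heparan sulfate (Entrez 27419, chromosome 11, 101070090 to 101077672), had the lowest fold change of the 38 genes. Its levels were 60.4, 72.0 and 71.8 CPM in control and 48.5, 47.6 and 50.5 CPM with circSlc17a5. The lowest control library stood well above the highest circSlc17a5 library. The means were 68.1 ± 6.68 and 48.9 ± 1.52 CPM (SD, n = 3 libraries each), a 1.39-fold lower level with a log2 fold change of -0.48 (SE 0.086, edgeR adjusted p = 0.00773). The adjusted p was at most 0.0431 with any library left out.

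Man2b1, the lysosomal alpha-mannosidase that trims N-glycans (Entrez 17159, chromosome 8, 85082730 to 85098739), had 45.5, 53.7 and 50.4 CPM in control and 40.9, 40.0 and 38.7 CPM with circSlc17a5. Idua, the iduronidase of heparan and dermatan sulfate (Entrez 15932, chromosome 5, 108660331 to 108694154), had 11.6, 12.3 and 12.3 CPM and then 10.2, 9.29 and 9.43 CPM. In both genes the groups did not overlap. The log2 fold changes were -0.32 (SE 0.084, edgeR adjusted p = 0.026) for Man2b1 and -0.33 (SE 0.103, edgeR adjusted p = 0.0457) for Idua. Idua was not called by DESeq2 (adjusted p = 0.11) or in the authors' deposited table (q = 0.14), and its span overlaps Slc26a1 and Dgkq. On log2(FPKM + 1) neither was called (limma adjusted p = 0.0543 for Man2b1 and 0.0607 for Idua).

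Gaa, which degrades glycogen, had the highest FPKM of the glycosidases and was not called (log2 fold change -0.14, SE 0.075). Its levels were 403, 436 and 467 CPM in control and 391, 392 and 399 CPM with circSlc17a5, and control library 1 came close to the other group. Hexa, the alpha subunit of beta-hexosaminidase, had 95.1, 112 and 116 CPM in control and 91.6, 98.2 and 97.6 CPM with circSlc17a5, so control library 1 lay inside the circSlc17a5 range. Its log2 fold change was -0.17 (SE 0.085) with all libraries and -0.27 (edgeR adjusted p = 0.0494) without control library 1 and circSlc17a5 library 2. Gusb, Gla and Manba, which remove glucuronic acid, galactose and mannose, had log2 fold changes of -0.18, 0.10 and 0.22 and were not called.

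The sulfatases went both ways, with 1 of 5 higher and 1 lower. Ids, which removes sulfate from iduronic acid in heparan and dermatan sulfate (Entrez 15931, chromosome X, 70343069 to 70385834), had 13.1, 9.85 and 9.78 CPM in control and 16.5, 14.3 and 13.7 CPM with circSlc17a5. Control library 1 stood near the lowest circSlc17a5 library. The log2 fold change was 0.45 (SE 0.136, edgeR adjusted p = 0.0411), and 0.32 with the offset (adjusted p = 0.06). The authors' deposited table gave a q of 0.0535. On log2(FPKM + 0.1) the limma adjusted p was 0.0522.

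Galns, the sulfatase of keratan sulfate and chondroitin 6-sulfate (Entrez 50917, chromosome 8, 122578237 to 122611698), had 58.3, 64.1 and 68.7 CPM in control and 49.8, 53.2 and 52.0 CPM with circSlc17a5. The groups stood apart, with a log2 fold change of -0.30 (SE 0.081, edgeR adjusted p = 0.0285). Its span overlaps Trappc2l on the other strand.

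Arsa, which removes sulfate from sulfatide, was the sulfatase with the highest FPKM and differed little, with 101, 87.1 and 97.7 CPM in control and 95, 101 and 99.6 CPM with circSlc17a5. Arsb, which acts on dermatan sulfate, had 46.8, 29.8 and 34.7 CPM in control and 49.6, 42.3 and 41.5 CPM with circSlc17a5. The high control library 1 lay among the circSlc17a5 libraries. A log2 fold change of 0.26 (SE 0.147) was not called, and without control library 1 and circSlc17a5 library 2 it was 0.50 (edgeR adjusted p = 0.00793). Sgsh had a log2 fold change of -0.21 (SE 0.134). Among the enzymes of heparan sulfate breakdown, Naglu and Idua were thus lower, Ids was higher, and Sgsh and Gusb were not called.

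None of the 4 lipid hydrolases and phosphatases was called by edgeR with all libraries. Asah1, the acid ceramidase, had 184, 141 and 179 CPM in control and 201, 198 and 194 CPM with circSlc17a5. All circSlc17a5 libraries lay above control, with a log2 fold change of 0.24 (SE 0.098, edgeR adjusted p = 0.1). Smpd1, the acid sphingomyelinase, was lower in each circSlc17a5 library (-0.15, SE 0.074), and the cholesteryl ester hydrolase Lipa was at 0.03 (SE 0.082). The acid phosphatase gene Acp2 was at -0.24 (SE 0.102), a value that was called with the offset (-0.34, edgeR adjusted p = 0.0252). Asah1 and Acp2 overlap the listed spans of Frg1 and of Ddb2 and Nr1h3. At an unadjusted p under 0.05, 2 of the 4 would have passed, and DESeq2 called 0.

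Among the activators and lumenal proteins 0 of 4 passed edgeR's test, and 1 had an unadjusted p under 0.05. Grn, whose progranulin is cut into granulins in the lysosome, had 1285, 1672 and 1640 CPM in control and 1213, 1268 and 1314 CPM with circSlc17a5. Control libraries 2 and 3 were far above the rest, and control library 1 lay among the circSlc17a5 libraries. The log2 fold change was -0.28 (SE 0.107, edgeR adjusted p = 0.0846). Grn passed in the DESeq2 Wald test (adjusted p = 0.0347) and in the authors' deposited table (q = 0.0442), and its log2 fold change was -0.39 without control library 1 and circSlc17a5 library 2 (edgeR adjusted p = 0.0186).

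Gm2a, the activator that presents ganglioside GM2 to beta-hexosaminidase, had 68.3, 88.5 and 85.9 CPM in control and 65.7, 69.0 and 76.0 CPM with circSlc17a5, again with control library 1 in the range of the other group. Its log2 fold change was -0.20 (SE 0.104) with all libraries and -0.30 without the same libraries (edgeR adjusted p = 0.0395). Psap, the precursor of the saposins, and Npc2, which binds cholesterol, had log2 fold changes of 0.00 (SE 0.078) and 0.01 (SE 0.086).

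Of the 8 membrane proteins 2 rose and 2 fell. Scarb2, the carrier of beta-glucocerebrosidase to the lysosome (Entrez 12492, chromosome 5, 92441311 to 92506833), had 15.4, 15.1 and 17.6 CPM in control and 22.9, 21.9 and 22.4 CPM with circSlc17a5. The means were 16.0 ± 1.39 and 22.4 ± 0.471 CPM (SD, n = 3 libraries each), and the groups lay far apart. Its log2 fold change of 0.48 (SE 0.093, edgeR adjusted p = 0.00955) was the highest of the 38 genes. It was called in each of 14 alternative fits, with log2 fold changes between 0.38 and 0.56.

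Laptm4a, a protein that spans the membrane of late endosomes and lysosomes several times (Entrez 17775, chromosome 12, 8921307 to 8938742), had 278, 258 and 304 CPM in control and 346, 353 and 347 CPM with circSlc17a5. The circSlc17a5 libraries were nearly equal and all above control. The log2 fold change was 0.32 (SE 0.077, edgeR adjusted p = 0.0215). Leaving out control library 2 or any circSlc17a5 library ended the call (highest adjusted p = 0.0789).

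Cd63 (Entrez 12512, chromosome 10, 128896231 to 128912822) had 601, 749 and 706 CPM in control and 494, 577 and 566 CPM with circSlc17a5. The gap between control library 1 and the highest circSlc17a5 library was small. The change on the log2 scale was -0.33 (SE 0.099, edgeR adjusted p = 0.0403), and the call ended on log2(FPKM + 1) (limma adjusted p = 0.0699).

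Cln3, the protein lost in juvenile Batten disease (Entrez 12752, chromosome 7, 126571207 to 126585817), had 42.4, 45.0 and 40.5 CPM in control and 31.3, 34.4 and 37.1 CPM with circSlc17a5. The groups did not overlap, and the circSlc17a5 libraries differed among themselves more than the control libraries did. The log2 fold change was -0.32 (SE 0.089, edgeR adjusted p = 0.0328), and the span overlaps Apobr. On log2(FPKM + 1) the limma adjusted p was 0.0527.

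Lamp1 and Lamp2, the most abundant glycoproteins of the lysosomal membrane, had log2 fold changes of 0.08 (SE 0.069) and 0.11 (SE 0.073) and were not called. The calcium channel gene Mcoln1 was at -0.08 (SE 0.088). Cd68, a scavenger receptor family member best known from macrophages, was at 0.23 (SE 0.093, edgeR adjusted p = 0.0954). With the offset it was at 0.37 and called (adjusted p = 0.0128), as it was on log2(FPKM + 1) (limma adjusted p = 0.0329). Its FPKM of 340 stood beside a leukocyte list in which 8 of the 9 genes in the table had a mean under 1 FPKM. Ptprc had 0 or 1 counts, Lyz2 0 to 4 and Ctss 0 to 3 per library, while Cd14 had 160 to 177 counts.

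**Figure D3:**
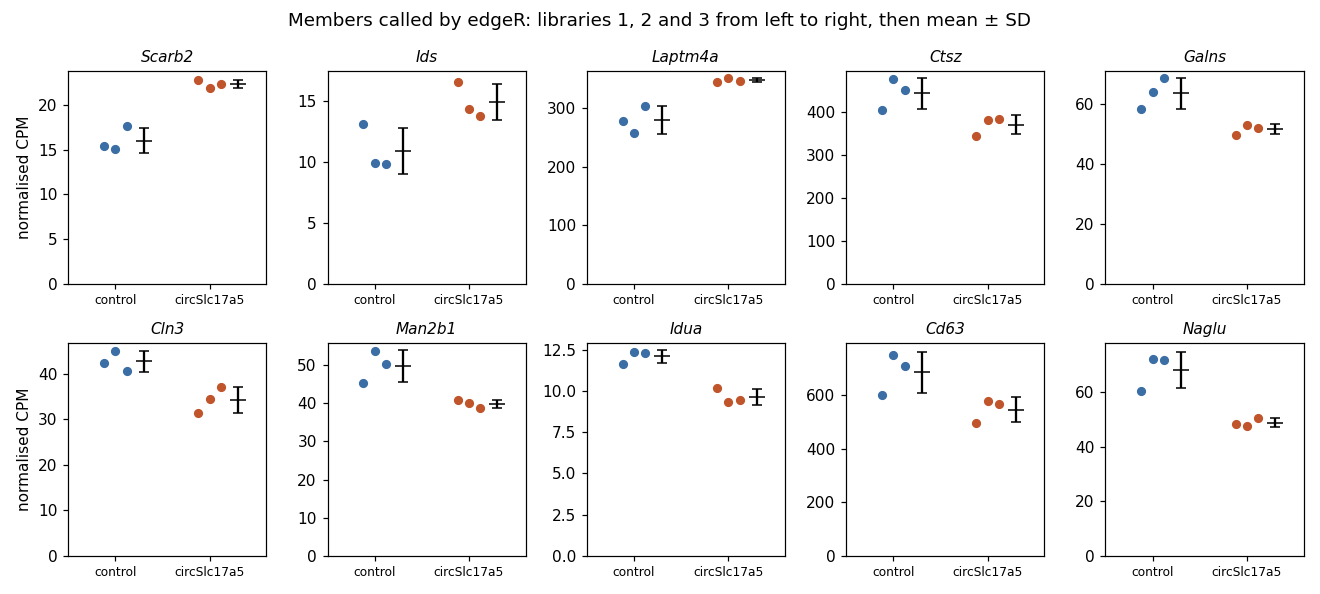
Normalised CPM of the 10 called genes, with libraries 1, 2 and 3 of each group from left to right (blue control, red circSlc17a5) and the mean ± SD beside them. In all 10 the groups do not overlap; control library 1 is the control nearest to the circSlc17a5 mean in 7 of them.

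The TFEB factors themselves differed little. Tfeb (Entrez 21425, chromosome 17, 47737037 to 47792416) had 28.7, 36.9 and 35.5 CPM in control and 29.5, 29.0 and 33.1 CPM with circSlc17a5. Control library 1 was the lowest of all 6. Tfeb had a log2 fold change of -0.14 (SE 0.108, edgeR adjusted p = 0.347), and -0.01 with the offset. Tfe3 (Entrez 209446, chromosome X, 7762530 to 7775202) had 81.8, 87.9 and 90.2 CPM in control and 91.0, 86.2 and 88.4 CPM with circSlc17a5, with a log2 fold change of 0.03 (SE 0.071, edgeR adjusted p = 0.767), which turned to -0.13 with the offset (adjusted p = 0.205). For Tfe3 the offset used the length of its longest transcript, 6328 bases, which may not be the one counted. At an unadjusted p under 0.05, 0 of the 2 factors passed, and DESeq2 called 0. Transcript levels do not show where in the cell the factors are.

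Most of the calls did not hold in every fit with 1 library left out. Ids, Cd63, Idua, Man2b1, Cln3, Galns and Ctsz were called without control library 1 and not with any of the other 5 libraries left out, where the highest adjusted p ran from 0.0864 for Man2b1 to 0.172 for Ctsz (edgeR). Without control library 1 the set had 5 genes higher and 13 lower, with Arsb and Asah1 added above and Ctsb, Gaa, Gm2a, Grn, Hexa and Tfeb below. In that fit 4699 of 11846 genes were called, against 2584 with all libraries. Without any other library 1 or 2 genes were higher and 1 was lower. Those fits called 462 to 1085 of the 11825 to 11838 genes tested, so the number of calls fell across all genes as well. Control library 1 was the control nearest to the circSlc17a5 mean for 19 of the 38 genes and for 53.2% of all tested genes. On the first principal component of all genes it lay at -5.49, beside -34 and -21.5 for the other controls and 15.6 to 26.4 for the circSlc17a5 libraries.

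Without control library 1 and circSlc17a5 library 2 together, the libraries of each group in which Tagln and Col1a2 were highest, 4 of the set were higher and 10 lower, beside 16.6% and 14.7% of all 11772 genes tested. Arsb, Ctsb, Gm2a, Grn and Hexa were called in that fit and not with all 6 libraries, and Idua was no longer called.

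**Figure D4:**
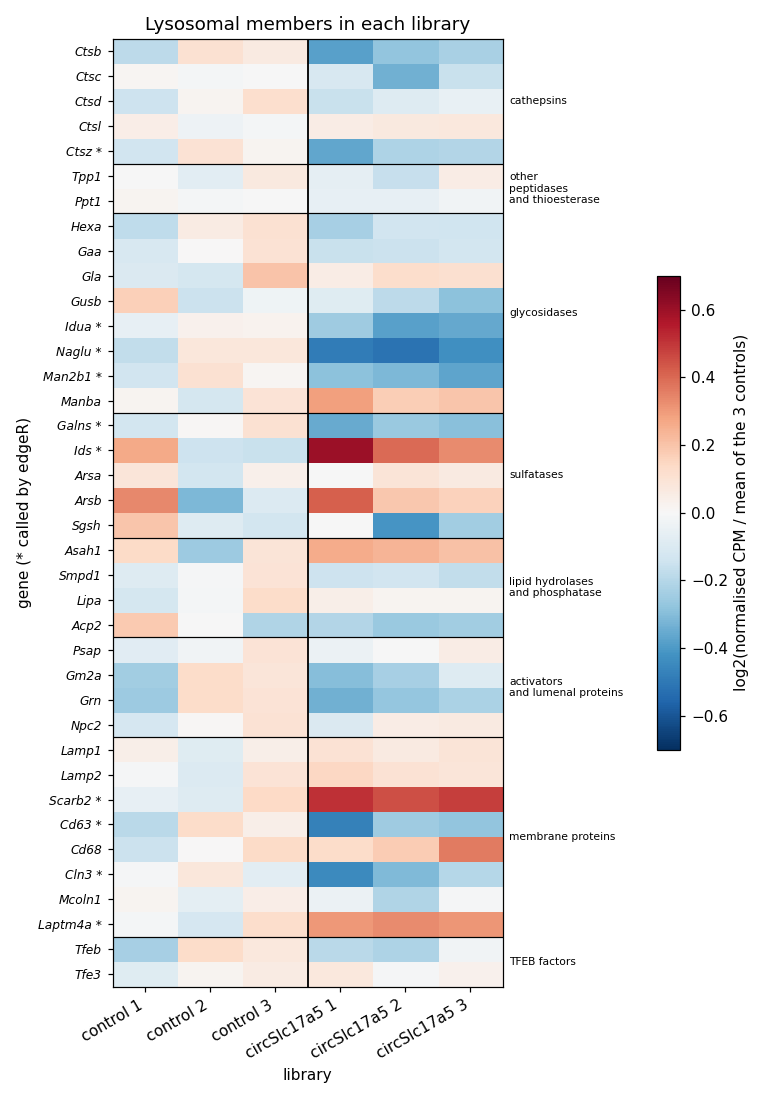
Each tested lysosomal gene (rows, by role) in each library (columns), coloured by the log2 ratio of its normalised CPM to the mean of the 3 controls (scale from below -0.6 in blue to above 0.6 in red), with an asterisk on the 10 called genes. Naglu is blue and Scarb2 red in all 3 circSlc17a5 libraries, and for Ctsb, Hexa, Gm2a, Grn, Cd63 and Tfeb control library 1 is tinted like the circSlc17a5 libraries.

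Base composition moved with the fold changes of the set. Across the 38 genes, Spearman's rho between log2 fold change and the GC content of each gene's longest transcript was -0.527, beside -0.19 across 11591 tested genes. With transcript length it was 0.118 in the set and 0.371 across all genes. Genes are not independent replicates and share the same 6 libraries, so these are descriptions. The 3 higher genes had a median GC content of 46.3%, the 7 lower 55.6% and the 28 others 51.1%. With an offset for GC content and length in the edgeR fit, 3 genes were higher and 8 lower, beside 9.97% and 12.5% of all tested genes. In that fit Cd68, Ctsb and Acp2 were called and Ids and Ctsz were not, while Scarb2 and Laptm4a stayed higher and Naglu, Man2b1, Idua, Galns, Cd63 and Cln3 stayed lower.

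**Figure D5:**
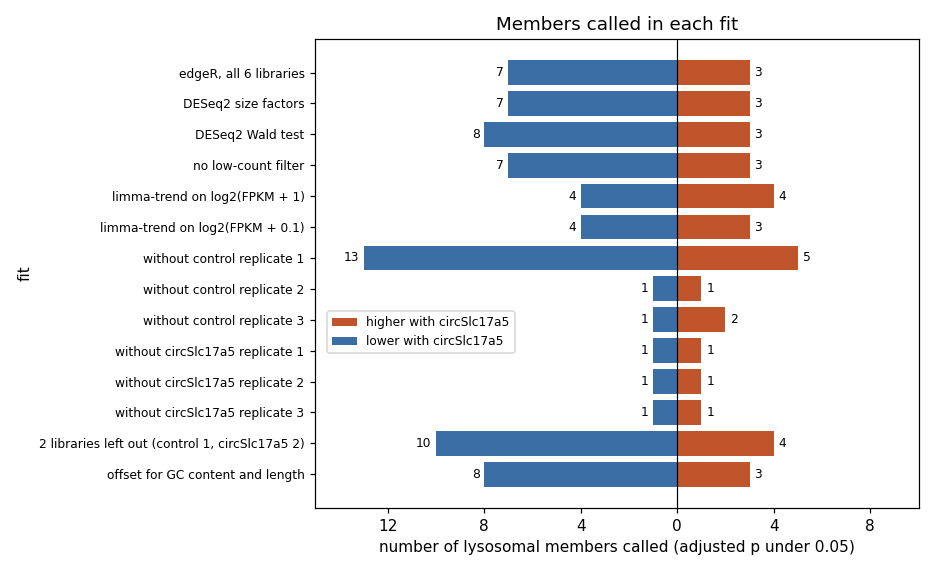
Number of lysosomal genes called higher (orange, to the right) or lower (blue, to the left) with circSlc17a5 in each fit drawn. The fit with the replicate number as a block, with 7 higher and 11 lower, is not drawn. The count with all 6 libraries is 3 higher and 7 lower, it is 5 and 13 without control library 1, and it is 1 or 2 and 1 without any other single library. Among all tested genes these fits called 2584, 4699 and 462 to 1085.

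Other genes of the lysosomal system were looked at in 6 lists with 137 genes, of which 129 were tested. In these, 18 rose (14.0%) and 9 fell (6.98%), beside 11.8% and 10.2% of all tested genes. The median log2 fold change was -0.02, against -0.002. Each list is small, so its counts stand beside the same shares and are no trait of a pathway. Among 27 further lysosomal hydrolases 5 rose and 2 fell. Prcp, a carboxypeptidase, rose by 0.75 on the log2 scale (edgeR adjusted p = 0.0129). The protease Ctso fell by 0.32 (adjusted p = 0.02), and Fuca1, which removes fucose, fell by 0.29 (adjusted p = 0.0279). The call of Prcp ended only without circSlc17a5 library 2 (adjusted p = 0.0567), that of Ctso without control library 3 or any circSlc17a5 library, and that of Fuca1 without any library other than control 1.

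Of 17 subunits and accessory proteins of the V-ATPase, the proton pump that acidifies lysosomes, 1 rose and 1 fell. The accessory subunit gene Atp6ap2 was at 0.35 (edgeR adjusted p = 0.0171) and the membrane ring subunit gene Atp6v0c at -0.32 (adjusted p = 0.0309). Of 21 transporters and channels 3 rose and 1 fell. Tmem175, a lysosomal potassium channel, fell by 0.48 in log2 units (edgeR adjusted p = 0.00889) and was called with each library left out. Npc1, the membrane partner of Npc2, was at 0.27 (adjusted p = 0.0275), a call that ended without any library other than control 1 and with the offset (log2 fold change 0.11, adjusted p = 0.223). Atp6v0c was likewise called only without control 1, and Atp6ap2 was lost without any circSlc17a5 library. Slc17a5, the sialic acid exporter and host gene of the circular RNA, had 22.9, 21.6 and 22.4 CPM in control and 33.8, 28.4 and 28.8 CPM with circSlc17a5. Its log2 fold change was 0.44 (SE 0.093, edgeR adjusted p = 0.0133), and counts per gene may include reads of the circular RNA. The call ended without control library 3 or circSlc17a5 library 1 (highest adjusted p = 0.0608).

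Of 26 genes of sorting and delivery 1 rose and 3 fell. Igf2r, the large mannose 6-phosphate receptor, rose by 0.50 on the log2 scale (edgeR adjusted p = 0.0126), and 0.27 remained with the offset (adjusted p = 0.0185). Gnptg, the gamma subunit of the enzyme that makes the mannose 6-phosphate tag, fell by 0.48 (adjusted p = 0.0141), and Cln6, a membrane protein of the endoplasmic reticulum, fell by 0.27 (adjusted p = 0.0365). The calls of Igf2r and Gnptg ended without circSlc17a5 library 1, that of Igf2r also without control library 3, and that of Cln6 without any library other than control 1. With the offset Cln6 was not called (-0.18, adjusted p = 0.085).

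Of 21 genes of mTORC1 at the lysosome and of the control of the TFEB factors, 4 rose and 2 fell. Rragd, a Rag GTPase that brings mTORC1 to the lysosome, had 39, 34 and 36 counts in control and 106, 88 and 86 with circSlc17a5. It was 2.47-fold higher (log2 fold change 1.31, SE 0.167, edgeR adjusted p = 0.00148) and was called with each library left out, at a low mean level of 0.797 FPKM. Fnip1, a partner of folliculin, rose by 0.48 (adjusted p = 0.0166), while Tsc2, an inhibitor of mTORC1, fell by 0.40 (adjusted p = 0.0156). Ppp3ca, a catalytic subunit of calcineurin, fell by 0.29 (adjusted p = 0.0456). Of 17 autophagy genes 4 rose (23.5%) and 0 fell, beside 11.8% and 10.2% of all tested genes. Wipi1, which binds phosphoinositides on forming autophagosomes, rose by 0.38 (adjusted p = 0.0143) and the conjugation factor Atg12 by 0.33 (adjusted p = 0.0194). The calls of Fnip1, Tsc2, Ppp3ca, Wipi1 and Atg12 each ended with at least 1 library left out, in every case circSlc17a5 library 1. With the offset the log2 fold changes of Fnip1 and Atg12 were 0.30 and 0.21, both still called.

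At the level of transcripts, 113 were listed for the 39 genes and 79 were tested. None of the 79 was called by edgeR, beside 0.00708% of all 28266 tested transcripts. Of the 79, 12 had an unadjusted p under 0.05 by edgeR and 27 had groups that did not overlap. Neither was counted over all tested transcripts, so these counts cannot be read as a trait of the set. In 22 genes a single transcript held over 95% of the counts. Lamp2, whose isoforms differ in their membrane tail, had 62.2% ± 6.21 of its counts in NM_001017959.2 in control and 54.7% ± 1.04 with circSlc17a5 (SD, n = 3 libraries each). Its other main transcript, NM_010685.4, had 37.2% ± 6.24 and 44.8% ± 1.06. In Galns the share of NM_016722.4 was 38.5% ± 17.4 in control and 76.2% ± 7.35 with circSlc17a5, and in Tfeb that of NM_001161722.1 was 44.7% ± 20.1 and 72.0% ± 5.84. In Lamp2, Galns and Tfeb the control libraries thus varied more than the others in how counts were divided between similar transcripts. This did not hold for every gene. In Ctsc, NM_009982.5 held 74.0% ± 1.74 in control and 72.6% ± 2.7 with circSlc17a5. In Ids, NM_010498.3 held 51.2% ± 15.1 and 40.8% ± 29.8.

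The labelled cell type was checked by its markers. Of 12 endothelial markers 11 were in the table and 8 of these had a mean under 1 FPKM. Among the 8 were Pecam1 (5 to 11 counts per library), Kdr (0 to 5) and Cldn5 (0 or 1). The other markers in the table, Flt1, Ets1 and Egfl7, had means of 8.71, 8.43 and 13.7 FPKM and were not called. The summed level of the list was 28.0 to 31.2 FPKM in control and 32.9 to 35.3 FPKM with circSlc17a5. The epithelial keratin genes Krt8 and Krt19 had means of 403 and 384 FPKM, and Krt18 had 830 to 1251 FPKM per library. Krt18 was lower with circSlc17a5 (log2 fold change -0.46, edgeR adjusted p = 0.0298). The other 4 epithelial markers in the table, Epcam, Cdh1, Krt7 and Cldn4, had means under 1 FPKM, and of these Epcam was higher (1.22, adjusted p = 0.0155). Of 15 leukocyte markers 9 were in the table, with sums of 6.93 to 9.12 FPKM in control and 7.38 to 8.13 FPKM with circSlc17a5. Most of that sum was Cd14 (mean 7.03 FPKM), and Mrc1, at a mean of 0.363 FPKM, was higher with circSlc17a5 (log2 fold change 0.97, edgeR adjusted p = 0.0251). Most of the endothelial list was thus low in cells labelled as an endothelial line. The identity of the cells was not tested, nor was its part in the lysosomal levels.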

How the data were processed

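TRIzol-extracted RNA went into a SMARTer mRNA-Seq kit, per the labels' protocols. Gene and transcript tables deposited by the authors hold expected counts, FPKM and TPM. The authors' deposited comparison table gives log2 fold changes with p-values and q-values from DESeq2, per the file headers. HISAT2 2.0.4, Bowtie2 2.2.5 and RSEM 1.2.12 are named in the submitters' processing notes, with roles, genome build, strand setting and filters not given in the sources used here. RSEM divides reads between similar transcripts by estimate, so 9.05% to 10.8% of gene counts were not whole. Of the 39 genes, 26 matched RefSeq GRCm38.p6 at both ends within 1 base. Printed positions are those of the files, and 10 of the 39 overlap another gene's listed span.

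A gene without an annotation entry was left out. Expected counts were rounded, filtered by filterByExpr (default minimum count of 10), normalised by TMM and compared two-sided by quasi-likelihood in edgeR 4.0.16 under R 4.3.3, with Benjamini-Hochberg adjustment over all tested genes. SE was taken as |log2 fold change|/√F. Normalised CPM are TMM-scaled. Alternatives used DESeq2 1.42.0, limma 3.58.1 on FPKM (pseudocounts 1 and 0.1), other filters and scalings, left-out libraries, and an offset for GC content and length fitted with mgcv 1.9.3 (values for 98.9% of tested genes). GC content and length were those of the longest GENCODE transcript of each gene, which need not be the transcript that held the counts. The edgeR step was tested on simulated data, where it recovered 67% of changes of 0.5 log2 units and 100% of changes of 1. It also called 14 unchanged genes. Smaller changes were not simulated, and the log2 fold changes of the set ran from -0.478 to 0.483, so a gene not called may still differ.

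The genes and lists were chosen with earlier results of these data known. Values of each library are printed for called genes, genes called in the authors' table or without control 1 and circSlc17a5 2, Tfeb, Tfe3 and the gene with the highest FPKM of each role. From each further list up to 2 risen and 2 fallen genes with the smallest adjusted p are named, of which 1 is not reported here.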

Additional observations from a re-analysis of the deposited data

How the results depend on the processing

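Naglu and Scarb2 were called in each fit run. With 1 library left out, the lysosomal set had 1 to 5 genes higher and 1 to 13 lower, the further lysosomal lists 2 to 22 higher and 1 to 28 lower, and all tested genes 462 to 4699 calls. On FPKM the set had 4 higher and 4 lower with pseudocount 1 (2157 of 11722 genes called) and 3 and 4 with 0.1 (2187 called), and the median log2 fold change was 0.012, beside 0.051 and 0.064 for all genes; the further lists had 2 (pseudocount 1) and 3 (0.1) lower. In those lists 14 were lower by the DESeq2 Wald test and 14 with the offset, and 18 without control replicate 1 and circSlc17a5 replicate 2. With the replicate number as a replicate block, 7 of the set were higher and 11 lower, 20 of the further lists were lower, and 4429 genes were called. The labels do not say whether the numbers pair the libraries. Same-numbered libraries correlated at 0.219, 0.068 and 0.065 in their deviations from the group means. Control 1 was closest to circSlc17a5 1, control 2 to circSlc17a5 3 (0.31) and control 3 to circSlc17a5 1 (0.074). With so few libraries these correlations cannot decide whether the libraries are paired. The cause of these shifts was not tested. No called gene of the set changed sign. Transcripts of the set had 0 calls by edgeR under each alternative. Ctsh did not pass the count filter of the main fit. Without that filter it was not called by edgeR, and the authors' deposited table gave a q of 0.97.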
